A study of Mus musculus with 12 samples.

Results

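Mouse embryonic stem cells leave pluripotency when the cytokine LIF is withdrawn, and cultured as embryoid bodies they form aggregates in which early embryonic lineages begin to appear. A set of 43 genes had a higher level at day 4 of this process than at day 0 in each of the 3 genotypes examined, including those that lacked the Smad proteins that carry Nodal and activin signals. The genes were chosen by their measured levels: a gene belonged to the set when, in every genotype, its lower day 4 library had at least 3 CPM (the count scaled to a common library total) and at least 3 times the CPM of its higher day 0 library. Of the 32285 gene IDs in the table, 47 met this rule. Of the 16 early-differentiation genes that the rule sets aside by name, 4 met it as well (Fgf5, H19, Dab2 and Igf2) and were dropped, which left the 43. All 43 code for protein, they lie on 17 chromosomes with 7 of them on chromosome 9, and all 43 passed the filter on low counts used for the tests.

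The cells were given as E14Tg2a.IV, a male mouse embryonic stem cell line. The groups at day 4, after LIF removal and embryoid body culture, were S2/3DKO (Smad2 and Smad3 double knockout), S4KO (Smad4 knockout) and WT. The same genotypes were taken undifferentiated at day 0. Each of the 6 groups had 2 libraries, 12 in all. No clone number, targeting design or separate culture was given in the labels, so each genotype may be 1 clone, and the spread between 2 libraries may be technical. The RNA came from whole cultures, so more RNA of a gene per cell and more cells of a type that makes it cannot be told apart.

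Smad2 and Smad3 are phosphorylated by receptors for Nodal, activin and TGF-beta, bind Smad4 and enter the nucleus, where the complex turns on targets such as those of the primitive streak and endoderm. Smad4 is also the partner of the Smads that carry BMP signals. Leaving the naive state also depends on other inputs, among them FGF and Wnt signalling and the loss of LIF itself. Cells that leave it pass through a formative and then a primed epiblast-like state before they take up a lineage.

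Library totals ranged from 31566376 counts in S4KO day 4 replicate 2 to 55806858 counts, and every other library had at least 46132635. Of the 12 libraries, the WT day 0 pair stood apart in ribosomal-protein transcripts, which took 15.04% and 11.03% of their counts and at most 7.84% elsewhere. S2/3DKO day 0 replicate 2 had the largest mitochondrial share, 6.74%. The ES cell markers Pou5f1 and Nanog were present in every day 0 library, at 754 to 1954 CPM and 402 to 732 CPM. Other ES cell markers were lower in S2/3DKO day 0 replicate 2 than in its replicate 1. In replicates 1 and 2, Klf4 had 361 and 87.6 CPM and Esrrb had 600 and 251 CPM. Zfp42 had 555 and 186 CPM and Sox2 had 382 and 187 CPM in the same pair. The 11 fibroblast (feeder) markers summed to 12.7 to 63.4 CPM per library, with Fap at 0 in all. Gene totals do not show whether the targeted exons are present: at day 4 Smad4 had 126 and 147 CPM in S4KO, against 138 and 124 CPM in WT, Smad2 had 52.4 and 50.9 CPM in S2/3DKO, against 98.0 and 69.9 CPM in WT, and Smad3 had 34.0 and 31.3 CPM in S2/3DKO, against 48.3 and 50.8 CPM in WT. Hprt, which is disrupted in E14Tg2a, had 178 and 172 CPM in the libraries labelled S4KO at day 4, against 0.410 and 0.252 CPM in WT. At day 0 it had 207 and 205 CPM in S4KO, against 0.381 and 0.565 CPM in WT. The Y-linked gene Eif2s3y was at 1.51 and 0 CPM in S2/3DKO at day 4, against 86.7 and 58.3 CPM in WT. At day 0 it was at 0 and 0 CPM in S2/3DKO, against 54.9 and 59.4 CPM in WT. The knockout lines therefore differed from WT in Hprt (S4KO) or Eif2s3y (S2/3DKO) as well as in the named deletion. Line and genotype cannot be told apart in any comparison between them.

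The set was small against what met the same rule in WT. The rule was met by 236 genes in S2/3DKO, 169 in S4KO and 1117 in WT, so the 47 made up 19.9% of the S2/3DKO genes, 27.8% of the S4KO genes and 4.21% of the WT genes. Those ratios chose the members and are given as a description. The median ratio of mean day 4 CPM to mean day 0 CPM over the 43 genes was 5.53 in S2/3DKO (3.20 to 22.2), 11.05 in S4KO (3.85 to 73.7) and 15.0 in WT (3.51 to 92.6). The genotype with the smallest ratio of lower day 4 to higher day 0 library was S2/3DKO for 27 genes, S4KO for 13 and WT for 3. The members nearest the limit were Chst15 (3.02, in S4KO), Fgfr2 (3.03, in WT), Cd24a (3.04, in S2/3DKO) and Pkdcc (3.05, in S2/3DKO). Just outside it lay Rnf128 (2.99, in S2/3DKO), App (2.91, in S4KO), Zfp697 (2.91, in S4KO) and Dsc2 (2.89, in S2/3DKO). With CPM scaled by TMM factors, as in the tests below, 32 of the 43 met the rule. Cd24a, Chst15, Cyp1b1, Fgfr2, Gsap, Has2, Pkdcc, Sall2, Sema5a, Tcaf1 and Tox3 then did not.

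**Figure D1:**
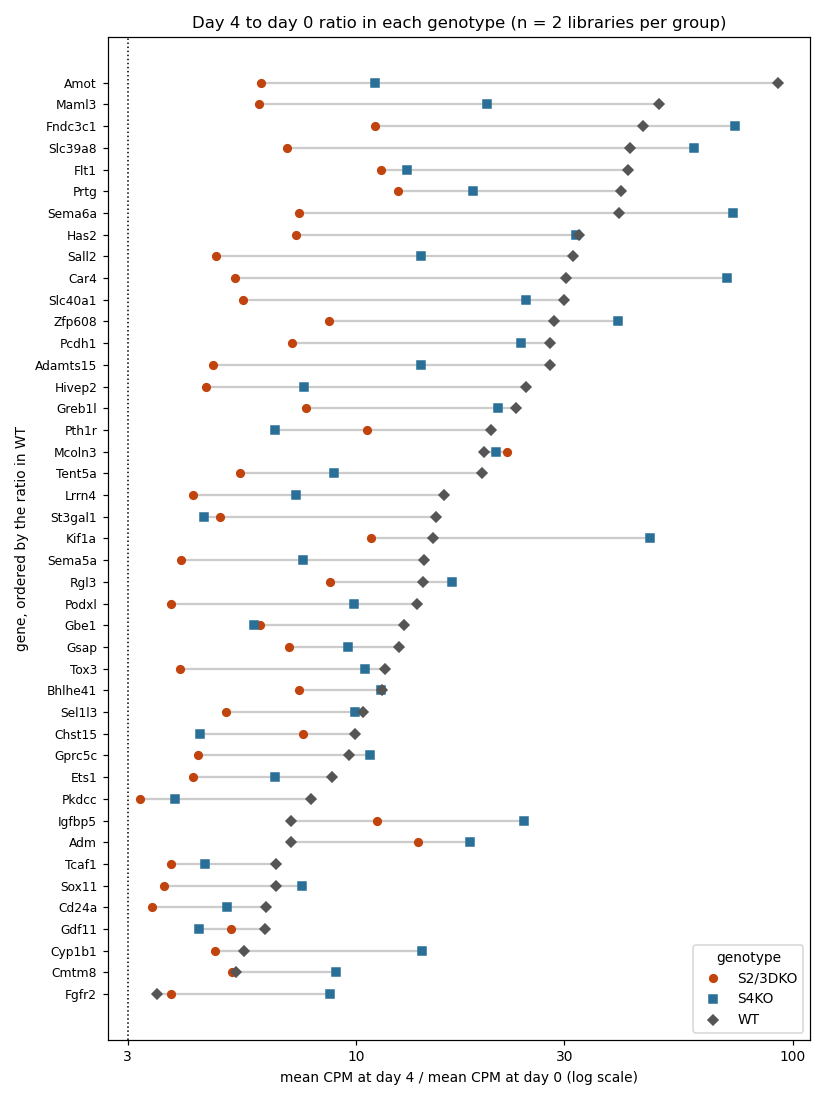
Ratio of mean day 4 CPM to mean day 0 CPM (log axis) for each of the 43 genes in S2/3DKO, S4KO and WT, 2 libraries per group, with genes ordered by the WT ratio and the dotted line at 3. WT spans 3.51 to 92.6, and the S2/3DKO points sit between 3.20 and 22.2.

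In absolute level the genes differed widely. On the FPKM scale, which corrects for transcript length, their mean levels at day 4 ran from 0.373 to 141 in S2/3DKO (median 4.496), from 0.800 to 93.7 in S4KO (median 5.36) and from 0.907 to 184 in WT (median 9.03). At day 0 the medians were 0.693 FPKM in S2/3DKO, 0.335 FPKM in S4KO and 0.478 FPKM in WT. The 10 genes with the highest mean day 4 FPKM were, in falling order, Car4, Cd24a, Podxl, Amot, Pcdh1, Prtg, Kif1a, Gbe1, Gprc5c and Slc40a1. The members were long: their median summed exon length was 6754 bp, against 3780.5 bp over all genes tested and 4647.5 bp over the 10757 tested genes with at least 3 CPM in every day 4 library.

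**Figure D2:**
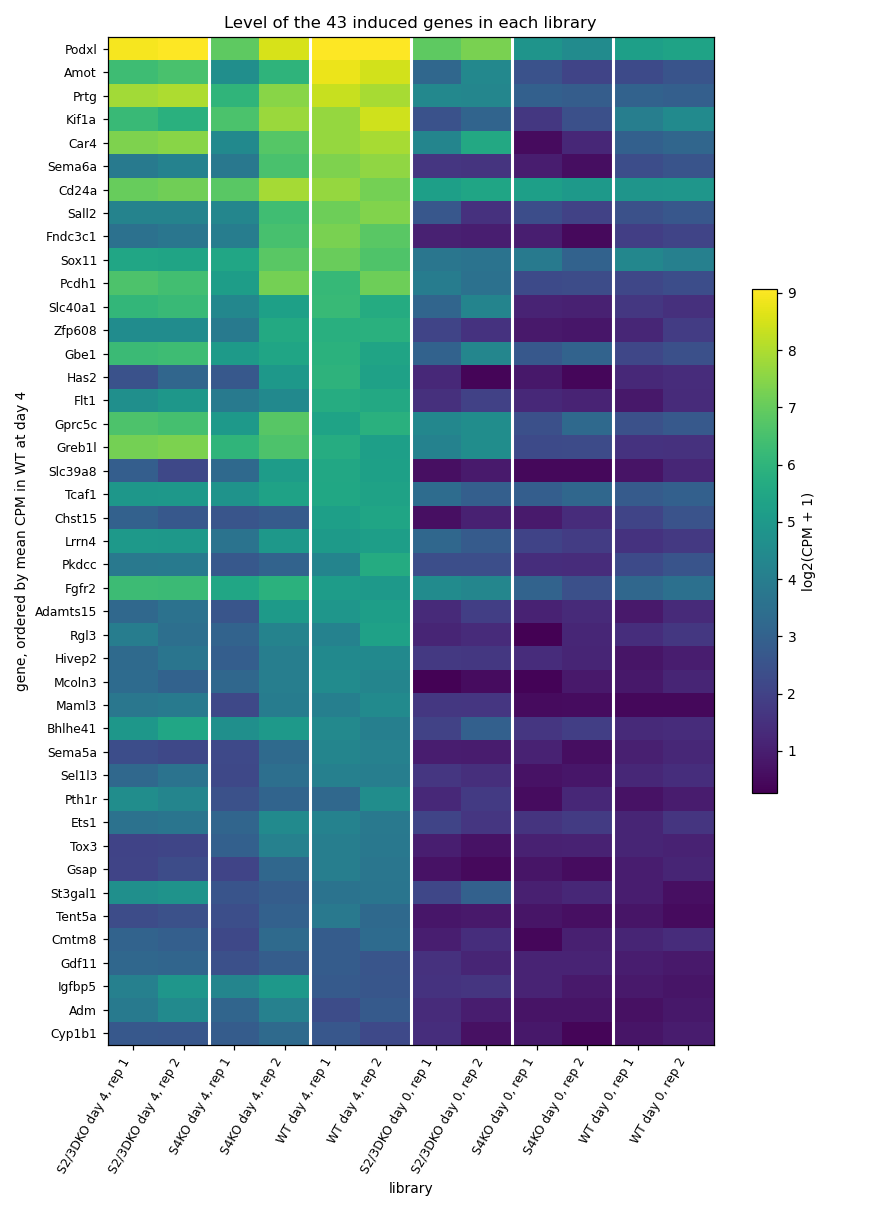
Level of each of the 43 genes as log2(CPM + 1) in each of the 12 libraries, with day 4 libraries on the left, day 0 on the right, and genes ordered by mean WT day 4 CPM. Every row is brighter at day 4 in all 3 genotypes, as the rule requires, and the S4KO day 4 replicate 1 column is dimmer than its replicate 2 column in each of the 43 rows.

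The S4KO day 4 libraries disagreed over these genes, and this touches every S4KO day 4 value. All 43 genes were higher in replicate 2 than in replicate 1, by a median of 2.44-fold (1.21 to 7.26), and 27 of them by more than 2-fold. Among the 10757 genes with at least 3 CPM in every day 4 library, 50.2% were higher in replicate 2 and the median ratio was 1.001. The largest ratios were those of Sema6a (7.26), Adamts15 (6.62), Fndc3c1 (6.13), Has2 (5.55) and Car4 (5.12), and the smallest was that of Chst15 (1.21). In the other groups replicate 2 was higher for 27 of the 43 genes in S2/3DKO day 4 (median ratio 1.07), 17 in WT day 4 (0.904), 21 in S2/3DKO day 0 (0.986), 19 in S4KO day 0 (0.987) and 33 in WT day 0 (1.23). In WT day 0, 73.6% of the genes with at least 3 CPM in every day 4 library were also higher in replicate 2.

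Naive pluripotency markers went the other way in the same pair. All 16 of these genes, such as Klf4, Esrrb and Zfp42, were lower in S4KO day 4 replicate 2, and they summed to 2233 CPM in replicate 1 and 996 CPM in replicate 2. Esrrb, an orphan nuclear receptor of the naive state, had 449 and 171 CPM, and Klf4 had 46.2 and 13.7 CPM. The same list summed to 1112 and 922 CPM in S2/3DKO and 748 and 710 CPM in WT at day 4. The part of this difference in the S4KO results was not tested. Across the 43 genes, the log2 replicate ratio in S4KO day 4 had a Pearson r of -0.55 and a Spearman rho of -0.49 with the log2 fold change of S2/3DKO against WT at day 4. The points share no library between the 2 measures, but they are genes and not independent replicates.

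**Figure D3:**
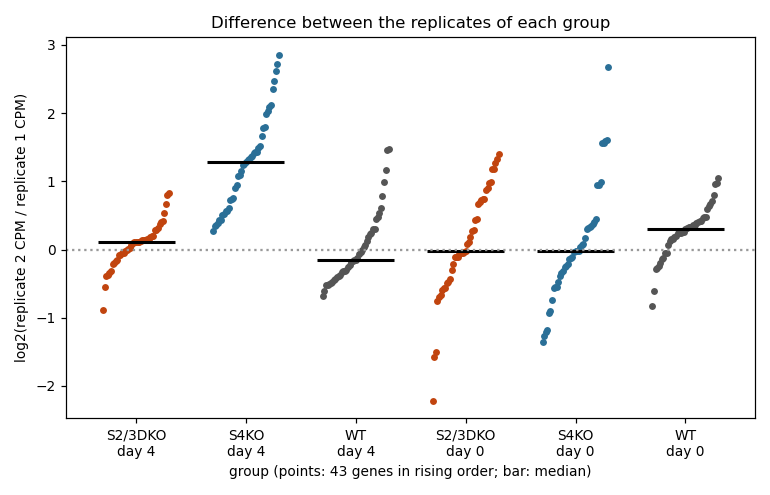
Log2 ratio of replicate 2 to replicate 1 CPM for the 43 genes in each of the 6 groups, with genes in rising order within a group and the bar at the median. All 43 points of S4KO day 4 lie above 0, while the medians of the other groups lie between 0.904-fold and 1.23-fold.

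Promoter sequence was read for the members to see what they share outside the counts. RefSeq (GRCm38.p6) windows of 300 bases, from 250 before to 50 after a transcription start, were at hand for 30 of the 43 genes. Their median GC content was 61.0%, against 52.7% over all promoters in that table. Short motifs were searched on both strands. The Smad letters CAGACA were found for 4 of the 30 genes (13.3%), against 23.6% of the 27025 genes with a window. The TATA box letters TATAAA were found for 6 (20%), against 15.7%. The GATA letters AGATAA were found for 1 (3.33%), against 12.7%, the Hnf1 letters GTTAAT for 2 (6.67%), against 8.24%, and the Fox letters TGTTTAC for 2 (6.67%), against 4.05%. The T-box letters CACACCT and the Tcf/Lef letters CTTTGAT were in none of the 30, against 6.72% and 4.29% of all genes. With 30 genes these shares are a description, and a match is letters in a window, not a bound site.

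Of the 14 members that fell against WT in S2/3DKO at day 4, 12 had a window and 5 of those held at least 1 of the motifs. They are shown because they let the letters be seen for genes whose level differed between genotypes. Sequences run 5′ to 3′ on the gene's strand, and capitals mark each motif match on either strand. Gsap is at chr5:21176029-21176328, plus strand, with a Fox match and Hnf1 matches that start at positions 2 and 26, within a repeated stretch. That window lies upstream of the Gsap start in GENCODE M21 (chr5:21186255). Sall2 is at chr14:52328621-52328920, minus strand, with a TATA box match that starts at position -145 from the transcription start. Slc39a8 is at chr3:135825407-135825706, plus strand, with 2 Smad matches and a GATA match on the opposite strand. That window lies downstream of the Slc39a8 start in GENCODE M21 (chr3:135825279). Sox11 is at chr12:27342669-27342968, minus strand, with an Hnf1 match, and its window lies upstream of the GENCODE M21 start (chr12:27342574). Tent5a is at chr9:85327101-85327400, minus strand, with a TATA box match that starts at position -178.
Gsap: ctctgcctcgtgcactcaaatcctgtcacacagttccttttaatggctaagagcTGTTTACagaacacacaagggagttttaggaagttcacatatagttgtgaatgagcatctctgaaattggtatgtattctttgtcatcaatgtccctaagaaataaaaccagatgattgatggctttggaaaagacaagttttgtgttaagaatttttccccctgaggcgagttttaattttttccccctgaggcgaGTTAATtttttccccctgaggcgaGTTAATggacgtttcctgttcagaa
Sall2: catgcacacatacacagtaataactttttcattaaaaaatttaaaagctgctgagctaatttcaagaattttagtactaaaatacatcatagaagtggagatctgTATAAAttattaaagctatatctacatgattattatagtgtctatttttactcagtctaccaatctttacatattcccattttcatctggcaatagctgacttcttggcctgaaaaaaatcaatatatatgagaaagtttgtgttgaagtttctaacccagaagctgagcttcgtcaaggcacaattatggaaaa
Slc39a8: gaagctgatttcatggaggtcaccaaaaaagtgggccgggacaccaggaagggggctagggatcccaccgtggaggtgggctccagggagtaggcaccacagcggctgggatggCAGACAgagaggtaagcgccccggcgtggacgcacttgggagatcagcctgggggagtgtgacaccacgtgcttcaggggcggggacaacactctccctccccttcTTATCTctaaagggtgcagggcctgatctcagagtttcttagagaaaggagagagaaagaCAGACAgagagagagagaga
Sox11: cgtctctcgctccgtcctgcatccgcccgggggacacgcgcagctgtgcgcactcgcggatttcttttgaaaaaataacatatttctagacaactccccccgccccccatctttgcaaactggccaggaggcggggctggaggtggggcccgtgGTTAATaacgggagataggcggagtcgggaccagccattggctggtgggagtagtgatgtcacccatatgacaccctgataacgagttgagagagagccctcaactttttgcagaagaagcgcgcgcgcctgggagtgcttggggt
Tent5a: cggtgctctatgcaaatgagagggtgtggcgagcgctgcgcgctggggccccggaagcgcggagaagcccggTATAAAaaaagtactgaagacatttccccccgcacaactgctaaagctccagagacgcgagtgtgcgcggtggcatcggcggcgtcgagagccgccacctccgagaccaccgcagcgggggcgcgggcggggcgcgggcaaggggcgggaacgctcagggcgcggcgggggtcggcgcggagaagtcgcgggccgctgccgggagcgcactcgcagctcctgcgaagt

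At day 4, the 43 genes were then compared between genotypes. Line and genotype cannot be told apart here, so a difference is not read as dependence on a Smad. Fold changes are from edgeR's quasi-likelihood test over all 18693 genes tested, with Benjamini-Hochberg adjusted p-values and calls below 0.05. The rule set a floor on the day 4 level in every genotype, so these counts are read only beside the same count over all genes. In S2/3DKO against WT, 4 members rose, where 7.21% of all genes tested were called higher, and 14 fell, where 8.0% were called lower. Those are 9.30% and 32.6% of the 43. Among genes with at least 3 CPM in every day 4 library, 5.78% were higher and 8.07% lower. The median log2 fold change was -0.61 over the members and -0.03 over all genes tested. In S4KO against WT, 1 member rose, where 0.679% of all genes were called higher, and 4 fell, where 1.05% were called lower, with a median of -0.95 over the members and -0.03 over all genes. The comparisons share the WT libraries, so their values are set side by side only.

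The S2/3DKO count rested on both S2/3DKO day 4 libraries. It was 4 without S2/3DKO day 4 replicate 2 and 7 without its replicate 1. Leaving out a WT day 4 library gave 12 (replicate 1) or 16 (replicate 2). The medians of these 4 fits lay between -0.57 and -0.71. Calls over all genes also fell without either S2/3DKO day 4 library, so the lower counts are not particular to the members. In S4KO against WT, calls over all genes fell without S4KO day 4 replicate 1 and rose without its replicate 2. Fndc3c1, Chst15 and Greb1l were called in each of the 22 alternatives tried for S2/3DKO against WT at day 4. The S4KO count was 1 without S4KO day 4 replicate 1, with a median of -0.39, and 19 without replicate 2, all lower, with a median of -1.65. It was 3 without either WT day 4 library.

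**Figure D4:**
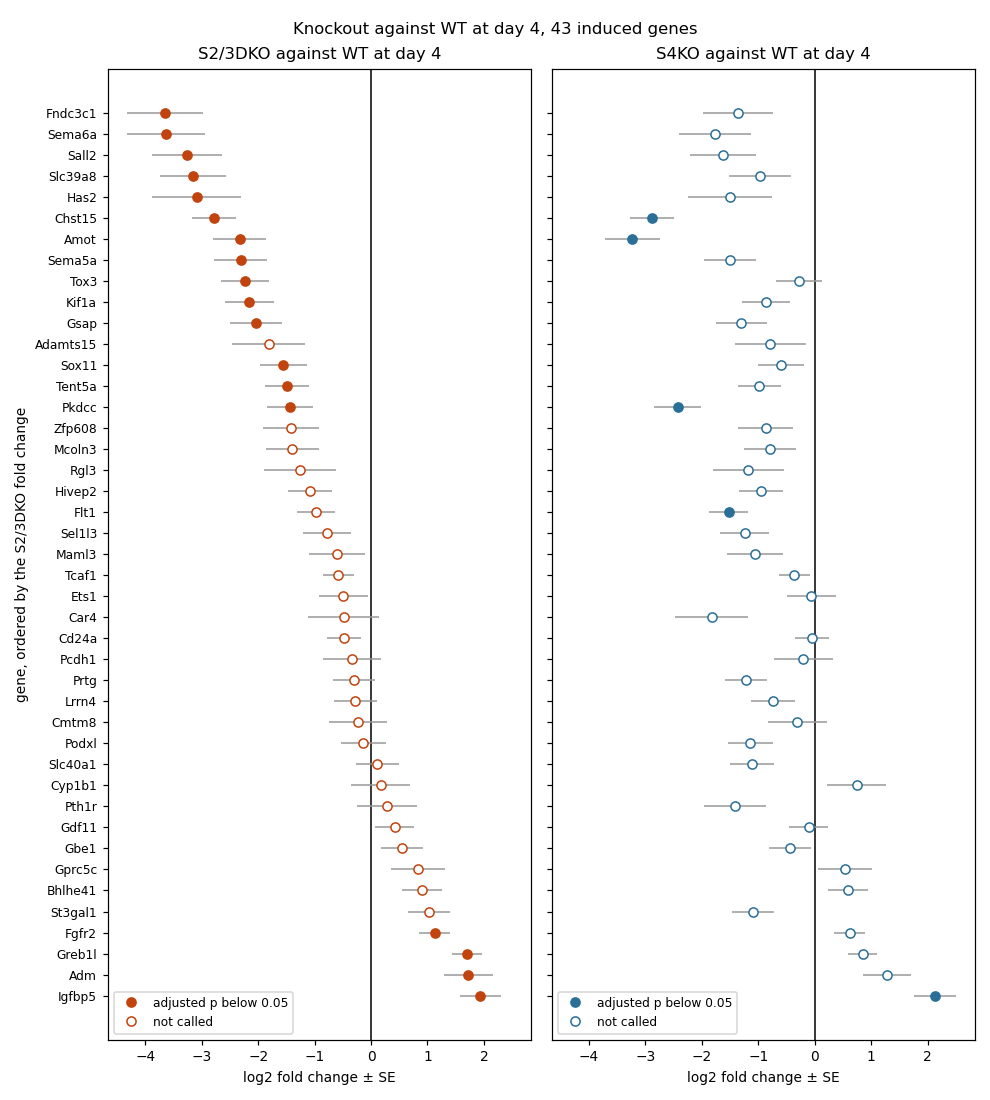
Log2 fold change ± SE at day 4 of S2/3DKO against WT (left) and S4KO against WT (right) for the 43 genes, 2 libraries per group, with filled points for an edgeR adjusted p below 0.05. In S2/3DKO, 4 filled points lie right of 0 and 14 left of it, and in S4KO 1 lies right and 4 left.

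The members are taken below by role, in classes of 6 to 8 genes that serve only to order them. No class was tested. Over all genes tested at day 4, 7.21% were called higher and 8.0% lower in S2/3DKO against WT. In S4KO against WT the shares were 0.679% and 1.05%. Of the 8 transcription regulators, 3 fell in S2/3DKO at day 4, none rose, and none was called in S4KO. Sall2, a zinc-finger factor of the spalt family that is also on the list of formative and primed epiblast genes, had 17.2 and 17.3 CPM in S2/3DKO, 18.8 and 81.3 CPM in S4KO and 138 and 169 CPM in WT at day 4. The S2/3DKO libraries lay far below WT, S4KO replicate 1 lay with S2/3DKO, and S4KO replicate 2 lay between. Its log2 fold change was -3.26 ± 0.62 in S2/3DKO (edgeR adjusted p = 0.00613) and -1.63 ± 0.59 in S4KO (edgeR adjusted p = 0.212). The S2/3DKO call was just missed when either S2/3DKO day 4 library was left out, with edgeR adjusted p of 0.0502 and 0.0518. Tox3, an HMG-box protein, had 3.1 and 3.33 CPM in S2/3DKO, 6.86 and 16.7 CPM in S4KO and 15.1 and 12.96 CPM in WT at day 4. The S2/3DKO pair was below all 4 other libraries, and the log2 fold change against WT was -2.23 ± 0.43 (edgeR adjusted p = 0.00614, and 0.0589 and 0.0532 without S2/3DKO day 4 replicate 1 or 2).

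Sox11, an HMG-box factor of neural and mesenchymal progenitors, had 43.4 and 41.02 CPM in S2/3DKO, 43.6 and 111 CPM in S4KO and 133 and 97.8 CPM in WT at day 4. S4KO replicate 1 lay beside S2/3DKO, and S4KO replicate 2 lay between the WT libraries. The log2 fold change was -1.55 ± 0.42 in S2/3DKO (edgeR adjusted p = 0.0279), and leaving out WT day 4 replicate 1 or either S2/3DKO day 4 library brought it to between 0.136 and 0.153. Maml3, a coactivator of Notch-dependent transcription, had 12.6 and 13.6 CPM in S2/3DKO, 3.54 and 14.4 CPM in S4KO and 15.7 and 21.3 CPM in WT at day 4, against 2.198 and 2.17 CPM in S2/3DKO, 0.424 and 0.478 CPM in S4KO and 0.381 and 0.37 CPM in WT at day 0. At day 4 S4KO replicate 1 was below the other 5 libraries, and at day 0 both S2/3DKO libraries were above the rest. Hivep2, a large zinc-finger protein that binds NF-kappa-B-like enhancer sequences, had 8.94 and 11.9 CPM in S2/3DKO, 6.39 and 15.2 CPM in S4KO and 20.6 and 20.5 CPM in WT at day 4, and Zfp608, another zinc-finger protein, had 22.3 and 22.2 CPM in S2/3DKO, 13.8 and 47.7 CPM in S4KO and 54.8 and 56.1 CPM in WT. Neither passed the test against WT in either knockout. Ets1, the founding member of the Ets family, was among the most even genes, with 10.9 and 11.9 CPM in S2/3DKO, 7.84 and 21.2 CPM in S4KO and 16.8 and 13 CPM in WT. Bhlhe41, a helix-loop-helix repressor of the circadian clock, had 29.6 and 43.2 CPM in S2/3DKO, 24.3 and 30.9 CPM in S4KO and 20.4 and 15.7 CPM in WT, the knockouts above WT, and was not called. Of its exon bases 19.05% overlap an unnamed model on the other strand, and the library kit does not mark strand.

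Among the 7 ligands, receptors and binding proteins, 3 rose in S2/3DKO at day 4 and none fell, and in S4KO 1 rose and 1 fell. Igfbp5, a secreted protein that binds insulin-like growth factors (mm10 chr1:72857932-72874884, minus strand, GENCODE M21), had 16.3 and 28.9 CPM in S2/3DKO, 18.4 and 30.3 CPM in S4KO and 5.78 and 5.19 CPM in WT at day 4. All 4 knockout libraries lay above both WT libraries. Its log2 fold change was 1.94 ± 0.37 in S2/3DKO (edgeR adjusted p = 0.00613) and 2.13 ± 0.37 in S4KO (edgeR adjusted p = 0.0193). The edgeR adjusted p passed 0.05 without S2/3DKO day 4 replicate 2 (0.0808) in S2/3DKO, and without WT day 4 replicate 1 (0.0978), WT day 4 replicate 2 (0.0826) or S4KO day 4 replicate 2 (0.0503) in S4KO. Adm, which encodes the vasodilator peptide adrenomedullin, had 13.4 and 21.4 CPM in S2/3DKO, 7.72 and 16.5 CPM in S4KO and 4.01 and 5.79 CPM in WT at day 4. Both knockouts lay above WT and overlapped each other, and the log2 fold change was 1.72 ± 0.43 in S2/3DKO (edgeR adjusted p = 0.0216) and 1.28 ± 0.43 in S4KO (edgeR adjusted p = 0.182). The S2/3DKO edgeR adjusted p was 0.107 without WT day 4 replicate 1 and 0.165 without S2/3DKO day 4 replicate 2.

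Fgfr2, a receptor tyrosine kinase for fibroblast growth factors, had 77.8 and 75.4 CPM in S2/3DKO, 43.3 and 58.4 CPM in S4KO and 34.01 and 31.2 CPM in WT at day 4. Its order was S2/3DKO above S4KO above WT with no overlap between groups. The log2 fold change was 1.13 ± 0.28 in S2/3DKO (edgeR adjusted p = 0.0199), a call that was missed when any 1 of the 4 libraries compared was left out (edgeR adjusted p 0.0541 to 0.115). Flt1, the VEGF receptor that acts mainly as a decoy in endothelium, had 24.1 and 29.3 CPM in S2/3DKO, 13.6 and 20.7 CPM in S4KO and 51.2 and 46.3 CPM in WT at day 4. Both knockouts lay below WT, with log2 fold changes of -0.97 ± 0.33 in S2/3DKO (edgeR adjusted p = 0.0726) and -1.53 ± 0.34 in S4KO (edgeR adjusted p = 0.0491). The S4KO edgeR adjusted p was 0.379 without S4KO day 4 replicate 1, and leaving out WT day 4 replicate 1 or 2 gave 0.162 or 0.0743.

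Gdf11, a TGF-beta superfamily ligand that itself signals through Smad2 and Smad3, was 1 of the 6 most even genes at day 4, with 8.22 and 7.801 CPM in S2/3DKO, 4.36 and 6.18 CPM in S4KO and 6.16 and 5.02 CPM in WT. Pth1r, the receptor of parathyroid hormone and its related peptide and a marker of parietal endoderm, had 22.7 and 18.3 CPM in S2/3DKO, 4.44 and 7.54 CPM in S4KO and 8.36 and 22.9 CPM in WT. Both S2/3DKO libraries lay between the WT libraries and both S4KO libraries below them, and neither difference from WT was called. Gprc5c, an orphan receptor of the G-protein-coupled class C family, had 96.9 and 87.1 CPM in S2/3DKO, 31.7 and 109.9 CPM in S4KO and 40.2 and 56.1 CPM in WT, with S4KO replicate 1 below every other library.

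Of the 8 surface and guidance proteins, 2 fell in S2/3DKO at day 4 and none was called in S4KO. Sema6a, a transmembrane semaphorin, had 13.7 and 17.02 CPM in S2/3DKO, 12.8 and 92.6 CPM in S4KO and 162 and 192 CPM in WT at day 4. S4KO replicate 1 was as low as S2/3DKO, and S4KO replicate 2 was at a level between S2/3DKO and WT. Against WT, Sema6a had a log2 fold change of -3.63 ± 0.69 in S2/3DKO (edgeR adjusted p = 0.00579, and 0.054 without S2/3DKO day 4 replicate 1) and -1.77 ± 0.64 in S4KO (edgeR adjusted p = 0.217). Sema5a, another transmembrane semaphorin, had 4.03 and 3.49 CPM in S2/3DKO, 3.597 and 8.902 CPM in S4KO and 18.5 and 16.3 CPM in WT. The S2/3DKO value was -2.31 ± 0.48 on the log2 scale (edgeR adjusted p = 0.0087, and 0.0612 and 0.0825 without S2/3DKO day 4 replicate 1 or 2).

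The other 6 surface proteins were not called against WT in either knockout at day 4. Prtg, protogenin, an immunoglobulin-superfamily receptor of early embryos, had 231 and 253 CPM in S2/3DKO, 63.5 and 178 CPM in S4KO and 316 and 239.6 CPM in WT at day 4, against 19.8 and 18.9 CPM in S2/3DKO, 6.74 and 6.28 CPM in S4KO and 7.14 and 6.58 CPM in WT at day 0. S4KO replicate 1 stood alone below the other 5 day 4 libraries. Podxl, a sialomucin of epithelial surfaces, was the most abundant by CPM, with 497 and 534 CPM in S2/3DKO, 116 and 368 CPM in S4KO and 533 and 522 CPM in WT at day 4, against 116 and 158 CPM in S2/3DKO, 27.2 and 21.8 CPM in S4KO and 36.2 and 40.4 CPM in WT at day 0. S2/3DKO lay close to WT at day 4 and above it at day 0. The most even members at day 4 by the range of group means were Pcdh1, Cmtm8, Cd24a, Ets1, Tcaf1 and Gdf11. Pcdh1, a protocadherin, had 95.4 and 83.3 CPM in S2/3DKO, 35.1 and 149 CPM in S4KO and 69.9 and 139.6 CPM in WT, so that its replicates differed more than its genotypes. Cd24a, a lipid-anchored glycoprotein, had 128 and 142 CPM in S2/3DKO, 110.5 and 233 CPM in S4KO and 201 and 149 CPM in WT. Cmtm8, a small membrane protein with a MARVEL domain, had 7.35 and 6.56 CPM in S2/3DKO, 3.54 and 8.902 CPM in S4KO and 6.01 and 9.16 CPM in WT, and Lrrn4, a leucine-rich repeat protein, had 30.4 and 29.9 CPM in S2/3DKO, 11.3 and 30 CPM in S4KO and 32.5 and 35.6 CPM in WT.

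Of the 6 enzymes of matrix, sugar chains and secretion, 3 fell in S2/3DKO and 2 in S4KO, and none rose. Chst15, the sulfotransferase that makes the doubly sulfated unit of chondroitin sulfate E, had 6.899 and 5.43 CPM in S2/3DKO, 4.93 and 5.96 CPM in S4KO and 36.9 and 42.02 CPM in WT at day 4. All 4 knockout libraries lay far below WT, and this was the gene with the closest S4KO replicates. Its log2 fold change was -2.78 ± 0.39 in S2/3DKO (edgeR adjusted p = 0.00118) and -2.88 ± 0.39 in S4KO (edgeR adjusted p = 0.0051, and 0.0564 without S4KO day 4 replicate 1). An antisense model overlaps 17.9% of its exon bases. Pkdcc, a secreted tyrosine kinase of skeletal development, had 12.99 and 13.9 CPM in S2/3DKO, 5.42 and 7.32 CPM in S4KO and 17.9 and 49.7 CPM in WT. The WT libraries differed by 2.78-fold, and the log2 fold change was -1.43 ± 0.40 in S2/3DKO (edgeR adjusted p = 0.0344) and -2.43 ± 0.42 in S4KO (edgeR adjusted p = 0.0173). These were lost without WT day 4 replicate 2 in S2/3DKO (edgeR adjusted p = 0.25), where either S2/3DKO day 4 library also decided the call (0.179 and 0.15 without replicate 1 or 2), and without S4KO day 4 replicate 1 in S4KO (0.163). Without WT day 4 replicate 2 the log2 fold change of Pkdcc was -0.57 in S2/3DKO and -1.59 in S4KO.

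Has2, which makes the matrix polysaccharide hyaluronan, had 4.57 and 7.96 CPM in S2/3DKO, 5.39 and 29.9 CPM in S4KO and 61 and 38.1 CPM in WT at day 4. The S2/3DKO pair and S4KO replicate 1 lay together, and S4KO replicate 2 approached WT. On the log2 scale it changed by -3.09 ± 0.79 in S2/3DKO (edgeR adjusted p = 0.0232), and the adjusted p was 0.0984 without WT day 4 replicate 1, 0.16 without S2/3DKO day 4 replicate 1 and 0.0902 without its replicate 2. Adamts15, a metalloprotease that cleaves versican, had 8.51 and 11.1 CPM in S2/3DKO, 4.93 and 32.7 CPM in S4KO and 28.7 and 35.4 CPM in WT, and it was not called against WT in either knockout. Gbe1, the glycogen branching enzyme, had 76.3 and 79.9 CPM in S2/3DKO, 32.3 and 42.3 CPM in S4KO and 57.7 and 41.4 CPM in WT, and St3gal1, which caps sugar chains with sialic acid, had 24.05 and 26.4 CPM in S2/3DKO, 4.796 and 6.18 CPM in S4KO and 11.2 and 11.8 CPM in WT. St3gal1 was higher in S2/3DKO than in WT and lower in S4KO than in WT without overlap, and neither difference from WT was called.

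Of the 6 transporters, channels and small-molecule enzymes, only Slc39a8 was called at day 4. Slc39a8, an importer of zinc and manganese, had 6.505 and 3.51 CPM in S2/3DKO, 8.65 and 34.2 CPM in S4KO and 46.04 and 37.2 CPM in WT. S2/3DKO was lowest, S4KO replicate 1 was near it, and S4KO replicate 2 was near WT. Against WT, the S2/3DKO log2 fold change was -3.16 ± 0.59 (edgeR adjusted p = 0.00549, and 0.0596 without S2/3DKO day 4 replicate 2). Car4, a membrane-anchored carbonic anhydrase, had 163 and 179 CPM in S2/3DKO, 20.8 and 107 CPM in S4KO and 205 and 240.5 CPM in WT at day 4, against 18.4 and 46.1 CPM in S2/3DKO, 0.444 and 1.36 CPM in S4KO and 6.72 and 8.003 CPM in WT at day 0. It had the highest FPKM of the set at day 4 by the mean over the 3 genotypes, but in S4KO it had 52.1 FPKM, against 93.7 for Cd24a. By CPM, S4KO was lowest at both days. Slc40a1, ferroportin, the iron exporter, had 67.1 and 74.5 CPM in S2/3DKO, 19.4 and 37.5 CPM in S4KO and 71.7 and 49.96 CPM in WT at day 4, against 7.83 and 17.8 CPM in S2/3DKO, 1.21 and 1.12 CPM in S4KO and 2.23 and 1.83 CPM in WT at day 0. At day 4 S2/3DKO overlapped WT, and at day 0 it lay above. Mcoln3, an endolysosomal cation channel, had 9.17 and 7.08 CPM in S2/3DKO, 8.14 and 15.2 CPM in S4KO and 21.6 and 18.2 CPM in WT. Tcaf1, which binds and regulates a TRP channel, had 29.6 and 30.2 CPM in S2/3DKO, 26.5 and 39.2 CPM in S4KO and 44.04 and 39.1 CPM in WT, and Cyp1b1, a cytochrome P450, had 5.45 and 5.29 CPM in S2/3DKO, 6.17 and 8.902 CPM in S4KO and 5.22 and 3.64 CPM in WT. Neither Mcoln3, Tcaf1 nor Cyp1b1 was called.

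Of the last 8, intracellular and other proteins, 5 fell and 1 rose in S2/3DKO, and 1 fell in S4KO. Amot, angiomotin, a junction protein that binds the coactivator YAP (mm10 chrX:145446425-145505181, minus strand), had 79.3 and 91.2 CPM in S2/3DKO, 23.3 and 62.8 CPM in S4KO and 442 and 356 CPM in WT at day 4, against 8.22 and 19.9 CPM in S2/3DKO, 4.62 and 3.17 CPM in S4KO and 3.69 and 4.93 CPM in WT at day 0. The day 4 level of all 4 knockout libraries was below that of both WT libraries by several fold. The log2 fold change was -2.33 ± 0.47 in S2/3DKO (edgeR adjusted p = 0.00799, and 0.071 and 0.0568 without S2/3DKO day 4 replicate 1 or 2) and -3.23 ± 0.49 in S4KO (edgeR adjusted p = 0.00874, and 0.0597 without S4KO day 4 replicate 1). Without S4KO day 4 replicate 2 the S4KO value was -4.10. Fndc3c1, a protein with fibronectin type III domains, had 10.7 and 12.2 CPM in S2/3DKO, 14.8 and 90.5 CPM in S4KO and 157 and 111 CPM in WT. The S4KO libraries differed by 6.13-fold, and the log2 fold change was -3.65 ± 0.67 in S2/3DKO (edgeR adjusted p = 0.00505) and -1.36 ± 0.62 in S4KO (edgeR adjusted p = 0.343).

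Greb1l, a nuclear coregulator linked to kidney and inner-ear development (mm10 chr18:10325177-10562940, plus strand), had 147 and 159 CPM in S2/3DKO, 64.6 and 95.7 CPM in S4KO and 51.1 and 36.4 CPM in WT at day 4, against 16.96 and 22.9 CPM in S2/3DKO, 3.695 and 3.89 CPM in S4KO and 1.91 and 1.85 CPM in WT at day 0. At both days S2/3DKO was highest and WT lowest, without overlap. Its log2 fold change at day 4 was 1.70 ± 0.26 in S2/3DKO (edgeR adjusted p = 0.00191) and 0.85 ± 0.26 in S4KO (edgeR adjusted p = 0.133). Kif1a, a kinesin that carries synaptic vesicle precursors along axons, had 74.8 and 57.02 CPM in S2/3DKO, 94.6 and 210.4 CPM in S4KO and 201 and 346 CPM in WT and fell in S2/3DKO (log2 fold change -2.16 ± 0.44, edgeR adjusted p = 0.00819, and 0.0751 without S2/3DKO day 4 replicate 2). Gsap, a protein that modulates gamma-secretase, had 3.23 and 3.95 CPM in S2/3DKO, 3.16 and 8.205 CPM in S4KO and 15.3 and 12.2 CPM in WT, and Tent5a, a non-canonical poly(A) polymerase, had 3.92 and 4.47 CPM in S2/3DKO, 4.23 and 7.06 CPM in S4KO and 13.2 and 8.74 CPM in WT. Both fell in S2/3DKO, with log2 fold changes of -2.04 ± 0.46 and -1.49 ± 0.39 (edgeR adjusted p = 0.0129 for Gsap and 0.024 for Tent5a), and both calls were missed without WT day 4 replicate 1 or either S2/3DKO day 4 library (edgeR adjusted p 0.0677 to 0.11 for Gsap and 0.129 to 0.177 for Tent5a). Rgl3, an exchange factor for Ral GTPases, had 14.7 and 10.04 CPM in S2/3DKO, 7.39 and 17.5 CPM in S4KO and 17.1 and 38.1 CPM in WT, and Sel1l3, a protein with Sel1 repeats, had 8.49 and 11.2 CPM in S2/3DKO, 3.52 and 10.1 CPM in S4KO and 16.2 and 15.4 CPM in WT. Neither was called.

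**Figure D5:**
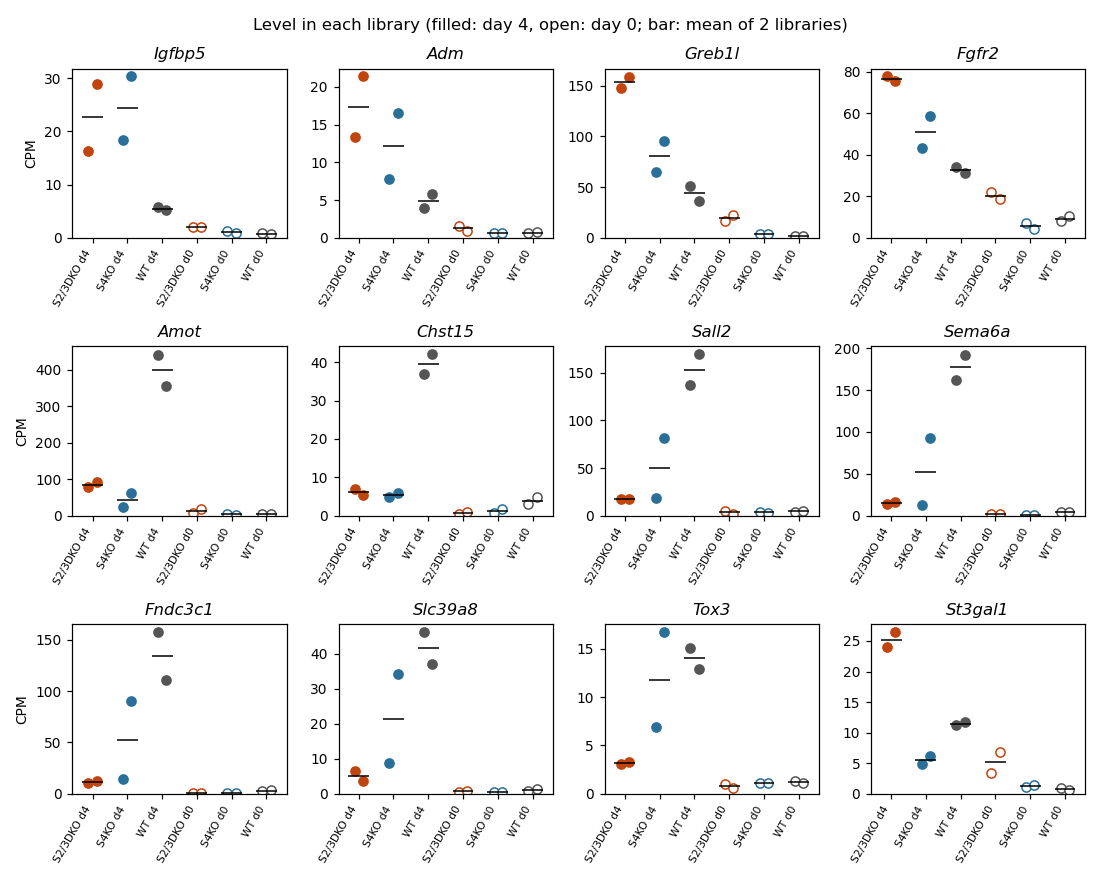
CPM in each library for 12 of the genes called at day 4, with S2/3DKO, S4KO and WT at day 4 (filled) left of the same genotypes at day 0 (open) and a bar at the mean of 2 libraries. The top row holds the 4 genes that rose in S2/3DKO against WT, and in Sall2, Sema6a, Fndc3c1 and Slc39a8 the S4KO point of replicate 2 lies well above that of replicate 1.

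The knockouts were also compared with each other at day 4. In S4KO against S2/3DKO, 3 members rose, where 5.84% of all genes were called higher, and 1 fell, where 6.45% were called lower. The median log2 fold change was 0.08 over the members and 0.04 over all genes. Tox3 (1.96 ± 0.42, edgeR adjusted p = 0.0133), Slc39a8 (2.18 ± 0.57, edgeR adjusted p = 0.0297) and Fndc3c1 (2.28 ± 0.64, edgeR adjusted p = 0.0383) were higher in S4KO on the log2 scale. The size of each rested on S4KO day 4 replicate 2. Without it the log2 fold change was 1.15 for Tox3 (edgeR adjusted p = 0.118), 0.85 for Slc39a8 (edgeR adjusted p = 0.339) and 0.42 for Fndc3c1 (edgeR adjusted p = 0.66), and without S4KO day 4 replicate 1 it was 2.81 for Slc39a8 and 3.02 for Fndc3c1. Without S2/3DKO day 4 replicate 1 or 2 the edgeR adjusted p was 0.109 and 0.0997 for Tox3, 0.0779 and 0.225 for Slc39a8, and 0.201 and 0.183 for Fndc3c1. St3gal1 was lower in S4KO, with 4.796 and 6.18 CPM in S4KO, against 24.05 and 26.4 CPM in S2/3DKO, a log2 fold change of -2.12 ± 0.39 (edgeR adjusted p = 0.00568), and was still called with any 1 of the 4 libraries compared left out.

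Before differentiation the 43 genes were low but not equal between genotypes. In S2/3DKO against WT at day 0, 15 members rose, where 16.7% of all genes were called higher, and 3 fell, where 14.4% were called lower. The median log2 fold change was 0.45 over the members and 0.02 over all genes. With a correction for exon length and GC content 11 members were called higher and 7 lower, and 12 of these were also called without it. In the corrected fit 41.4% of the calls over all genes were higher, and the median over all genes was -0.09. Greb1l had 16.96 and 22.9 CPM in S2/3DKO, against 1.91 and 1.85 CPM in WT (3.16 ± 0.28 on the log2 scale, edgeR adjusted p = 0.000174). St3gal1 had 3.45 and 6.89 CPM in S2/3DKO, against 0.963 and 0.545 CPM in WT (2.51 ± 0.41 on the log2 scale, edgeR adjusted p = 0.00253). Slc40a1, Maml3 and Car4 were the next largest rises, with log2 fold changes of 2.40 ± 0.42, 2.29 ± 0.57 and 1.88 ± 0.65. Chst15 (-2.52 ± 0.41), Kif1a (-1.82 ± 0.44) and Mcoln3 (-1.71 ± 0.54) fell on the same scale. Without S2/3DKO day 0 replicate 2 the log2 fold change was 1.75 for Slc40a1 and 1.14 for Car4, which was then not called. Greb1l, St3gal1, Slc40a1 and Chst15 were still called with any 1 of the 4 libraries compared left out. The count was 4 without either WT day 0 library, 7 without S2/3DKO day 0 replicate 2 and 11 without its replicate 1.

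In S4KO against WT at day 0, no member rose and 6 fell, where 9.14% of all genes were called lower and 10.5% higher. The median log2 fold change was -0.32 over the members and 0.01 over all genes. The 6 were Car4 (0.444 and 1.36 CPM in S4KO, against 6.72 and 8.003 CPM in WT), Sema6a (0.949 and 0.498 CPM in S4KO, against 4.05 and 4.83 CPM in WT), Kif1a (2.22 and 4.27 CPM in S4KO, against 15.3 and 21.2 CPM in WT), Fndc3c1, Chst15 and Pkdcc. Their log2 fold changes ran from -3.22 ± 0.73 for Car4 to -1.55 ± 0.42 for Pkdcc. The value of Car4 was -4.18 without S4KO day 0 replicate 2, and that of Fndc3c1 (-2.23 ± 0.70) was -3.02 without S4KO day 0 replicate 1. Leaving out WT day 0 replicate 1 or S4KO day 0 replicate 1 ended all 6 calls, and 1 member was called without WT day 0 replicate 2.

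The difference between genotypes in the change over the 4 days was tested as an interaction. The rule held this change at 3-fold or more in every genotype, so the test is not independent of how the genes were chosen. In S2/3DKO against WT, 5 members had a smaller change, where 4.26% of all genes were called lower, and none a larger one, where 1.83% were called higher. The median difference was -1.43 on the log2 scale over the members and -0.03 over all genes. Amot was higher at day 4 than at day 0 by 6.07-fold in S2/3DKO and by 92.6-fold in WT (-3.78 ± 0.66 on the log2 scale, edgeR adjusted p = 0.0173). Maml3 differed by 5.99-fold in S2/3DKO and by 49.3-fold in WT (-2.90 ± 0.75, edgeR adjusted p = 0.047). The others were Hivep2 (-2.30 ± 0.57), Slc40a1 (-2.28 ± 0.56) and Greb1l (-1.46 ± 0.37). Leaving out S2/3DKO day 0 replicate 2 brought Amot to -3.06 and Slc40a1 to -1.62. Amot was then still called, and Slc40a1, Hivep2 (-2.35), Maml3 (-2.93) and Greb1l (-1.26) were not. Without S2/3DKO day 0 replicate 1, Hivep2, Maml3 and Greb1l were not called. For Maml3, Hivep2 and Slc40a1 the level in S2/3DKO was not called different from WT at day 4 but was called higher at day 0. At day 0, limma on log2(FPKM + 1) missed Hivep2 (limma adjusted p = 0.475) and Maml3 (limma adjusted p = 0.397). The day 0 call of Hivep2 was also missed with the length and GC correction (edgeR adjusted p = 0.317). All 5 interaction calls were lost without either WT day 0 library, WT day 4 replicate 1 or either S2/3DKO day 4 library. Calls over all genes also fell in each of those fits. With the length and GC correction 2 members were called, and of the 5 only Amot was among them. In S4KO against WT no member was called by edgeR, where 0.150% of all genes were, and 8 had an unadjusted p below 0.05. DESeq2 called 5 members, where it called 9.24% of all genes.

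Other genes of the same pathways give a setting for these values at day 4. Of 19 formative and primed epiblast genes, a list that holds Sall2, 16 were lower and 0 higher in S2/3DKO against WT, with a median of -2.47, and 0 were called in either direction in S4KO. Of 44 FGF and other tyrosine kinase ligands and receptors, which hold Fgfr2, Flt1 and Igfbp5, 7 were higher and 13 lower in S2/3DKO, and 1 higher and 6 lower in S4KO. Of 48 TGF-beta superfamily genes, which hold Gdf11, 4 were higher and 10 lower in S2/3DKO, and 1 higher and 8 lower in S4KO. Of 34 guidance and Eph-ephrin genes, which hold Sema5a and Sema6a, 1 was higher and 9 lower in S2/3DKO, and 0 higher and 3 lower in S4KO. Primitive streak and early mesoderm genes, none of them a member, had 2 higher (Snai2 and Hand1) and 13 lower of 23 tested in S2/3DKO, and 0 higher and 12 lower in S4KO. Of 14 trophectoderm genes, also none a member, 12 were higher and 1 (Eomes) lower in S2/3DKO, and 1 was higher (Tfap2c) and 1 lower (Eomes) in S4KO at day 4. All 14 summed to 933 and 967 CPM in S2/3DKO and 148 and 120 CPM in S4KO, against 304 and 316 CPM in WT. Their part in the S2/3DKO values of the 43 genes was not tested.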

How the data were processed

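Each library was built from 500 ng of total RNA (integrity above 9.5) with a TruSeq kit that does not mark strand, per the labels. The authors deposited gene counts (whole numbers, no normalization recorded) and FPKM values for the 12 libraries. Build mm10, Cufflinks, StringTie and DESeq2 are named, with no role or version, per the submitters' processing notes. For the aligner, the annotation and the strand setting, the sources used here give no name. Of 32285 gene IDs, 32158 were matched to symbols through GENCODE M21 and 127 were not, and all 43 members are also in the FPKM table.

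Samples were grouped by genotype and day as in their titles. The 43 genes and the 21 gene lists were chosen with earlier results of these data known. Day 4 against day 0 within a genotype chose the members and was given no test. Counts were fitted with edgeR 4.0.16 in R 4.3.3 (glmQLFit and glmQLFTest, TMM, filterByExpr, 18693 genes, 1 coefficient per group, all 12 libraries), adjusted over all genes tested. Over all genes the biological coefficient of variation was 0.286.

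Named genes were the 20 members with the largest ratio in the genotype where it was smallest (0.1 CPM added), the 10 with the highest FPKM, the 8 largest rises and drops called at day 4, 5 at day 0 and for the interaction, the 6 most even, the 4 nearest each side of the limit, and up to 6 of each list. Other members are named with values to account for all 43, and genes outside these rules were chosen after their values were seen. Alternatives were RLE factors, another filter or none, DESeq2 1.42.0, limma 3.58.1 on log2(FPKM + 1) or log2(FPKM + 0.1), a replicate block, only the compared groups, a correction for exon length and GC content (99.9% of genes), and each library left out. The same correction applied to the rule was added after seeing the data. Where that left a lone library, its spread was taken to be that of the other groups. SE is the size of a log2 fold change over the square root of its F statistic. CPM is per library total. Totals of 31566376 to 55806858 counts per library set the counting precision, and 2 libraries per group limit the tests. Sequences are from RefSeq on GRCm38.p6. Tables and figures were made in Python 3.11.15 (matplotlib 3.10.9, scipy 1.17.1, numpy 2.4.6, pandas 2.3.3).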

Additional observations from a re-analysis of the deposited data

Results flagged for a closer look

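For 5 genes the day 4 to day 0 change differed between S2/3DKO and WT by the test of that difference (edgeR's quasi-likelihood interaction, Benjamini-Hochberg adjusted p below 0.05). The log2 differences, S2/3DKO minus WT, were -3.78 for Amot, -2.90 for Maml3, -2.30 for Hivep2, -2.28 for Slc40a1 and -1.46 for Greb1l. The rule that chose the genes used these changes, and the part of the WT day 0 libraries, whose ribosomal-protein share was 15.04% and 11.03% against at most 7.84% elsewhere, was not tested.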

How the results depend on the processing

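The rule gave 43 genes, and 188 at 2 CPM and 2 times, 11 at 5 CPM and 5 times, 15 on FPKM (14 of them among the 43), 23 with the length and GC correction, 32 on TMM-scaled CPM and 43 to 79 with 1 library left out. Calls with 1 library left out ranged from 4 to 21 for S2/3DKO against WT at day 4, 1 to 19 for S4KO against WT at day 4, 1 to 9 for S4KO against S2/3DKO at day 4, 4 to 22 for S2/3DKO and 0 to 10 for S4KO against WT at day 0, and 0 to 12 for S2/3DKO and 0 to 1 for S4KO in the change over time. Percentages in parentheses are the share of all genes tested that were called in the same fit. S4KO against WT at day 4 had 5 calls, and 11 with no filter (3.04%) and 8 with DESeq2 (5.79%). It had 3 with unfiltered limma (1.58%) and 2 with only the compared groups (0.748%). S4KO against S2/3DKO at day 4 had 4 calls, and 14 with no filter (11.3%) and 10 with DESeq2 (17.4%). It had 1 with unfiltered limma (6.48%), 7 with only the compared groups (25.9%) and 10 with the length and GC correction (23.1%). S2/3DKO against WT at day 0 had 18 calls, and 10 with limma (36.7%) and 4 unfiltered (11.9%). S4KO against WT at day 0 had 6 calls, and 10 with no filter (16.6%) and 12 with DESeq2 (26.8%). It had 2 with limma (24.6%), 0 unfiltered (5.61%) and 13 with the length and GC correction (18.7%). The S2/3DKO change over time had 5 calls, and 15 with no filter (10.3%) and 15 with DESeq2 (17.7%). It had 9 with limma on log2(FPKM + 1) (11.8%), 3 on log2(FPKM + 0.1) (10.8%) and 1 unfiltered (2.41%). With only the compared groups it had 16 (8.78%), and with the length and GC correction 2 (7.77%). The S4KO change had 0 calls, and 2 with no filter (3.47%) and 5 with DESeq2 (9.24%). It had 2 with limma (1.62%), 1 on log2(FPKM + 0.1) (0.805%), 1 unfiltered (0.716%) and 1 with the length and GC correction (0.931%). The difference of S2/3DKO from WT in the change of Greb1l was 0.0758 with limma on log2(FPKM + 1), filtered or not, against -1.46 in edgeR. The cause was not tested in any of these. Over the 1232 alternative values of called members, 971 kept direction and side of the threshold, 259 kept direction only and 2 reversed. That correction moved the share of all calls that were higher to 58.1% for S4KO against WT at day 4 and to 41.4% for S2/3DKO against WT at day 0. The replicate numbers share only a number: same-numbered samples correlated at -0.126 to 0.291 over 15 pairs of groups. With the replicate block the counts were 19, 5 and 5 at day 4 (S2/3DKO, S4KO, and S4KO against S2/3DKO), 18 and 5 at day 0, and 5 and 0 for the change over time. For each knockout against WT at day 0, calls over all genes also fell when any 1 library of the groups compared was left out. With 2 libraries per group, a missed call does not show that levels were equal.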
